A study of Mus musculus with 24 samples.

Results

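Macrophage and antigen presentation genes were followed in sorted vascular endothelial cells of the mouse. The set held 32 genes chosen by name: the growth factor Csf1 and its receptor Csf1r, 3 transcription factors, 5 leukocyte membrane or signalling proteins, 6 Fc or pattern recognition receptors, 8 phagocyte enzymes or surface proteins, 5 antigen presentation genes and 3 cytokines. A probe was matched by its accession for 30 of the 32, among 18539 gene symbols with a probe on the array. Clec7a and H2-Eb1 had no matched probe, and 10 members had more than 1. For those the brightest probe of each tissue stands for the gene.

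The samples were 24 one-colour microarrays in 8 groups of 3, from aorta and from skeletal muscle (SkM) of male mice. The WT-labelled groups were C57BL/6J mice and the KO-labelled groups galectin-3-deficient mice (B6.Cg-Lgals3 tm1Poi/J), in which the deletion is not limited to endothelium. Both entered at 8 weeks of age and were fed for 8 weeks on standard chow (Chow), with 12% of calories from fat, or on a diet with 60% (HFD). Each of 3 experiments gave 1 pool of several animals per strain and diet, and aorta and muscle of a pool were hybridised separately, so an array stands for 1 pool and not for 1 mouse. Live cells were sorted as CD105+/CD45-, where CD105 (endoglin) marks endothelium and also some activated monocytes and macrophages, and CD45 (the product of the member Ptprc) marks leukocytes. The gate was therefore set against the cells that many of these genes are best known from, in all 8 groups.

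Macrophages arise from monocytes or from embryonic precursors that settle in tissues, and they depend on colony stimulating factor 1 acting on its receptor. The transcription factor PU.1, encoded by Spi1, opens much of their gene programme. They sense microbes through Toll-like and Fc receptors. Many Fc and other activating receptors, though not the Toll-like ones, signal through the small adaptors encoded by Tyrobp and Fcer1g. Some load peptides on MHC class II molecules, whose alpha and beta chains (H2-Aa, H2-Ab1, H2-Eb1) are held together by the invariant chain Cd74 until a peptide is bound. In the vessel wall and in muscle they lie next to the endothelium. Endothelial cells themselves express several of these genes, among them Csf1, Tlr4 and, when stimulated, MHC class II.

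Values are log2 signals relative to the 75th percentile of the array, so that 0 is that percentile. A probe was tested where it was well above background, by the scanner software's own call, on every array of at least 1 group. Of the 30 members, 23 passed in aorta, 23 in muscle and 24 when the tissues were fitted together. Well above background on all 12 arrays of a tissue were 18 members in aorta and 13 in muscle. Spi1, Fcgr1, Trem2, Itgax, Cd86 and Il10 were tested in neither tissue, Tnf only in muscle and Lyz2 only in aorta among the single-tissue fits. Lyz2 in aorta and Il1b in muscle passed only through chow groups. Fcgr3 and Il1b in aorta, and Fcgr3, Mrc1 and Folr2 in muscle, passed only through HFD groups, so for these the filter itself leaned one way. PU.1's own gene, Spi1, was well above background on 1 of 12 arrays in each tissue.

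All 12 endothelial markers examined, among them Cdh5, Kdr and Tie1, were well above background on all 24 arrays. Detection alone does not measure how pure the sorted cells were, and the summed signals are given with the tissue comparison. The 75th percentile signal ran from 2390 to 5938 and the share of spots well above background from 59.5% to 75.7%. Each of the 6 slides held the 4 arrays of 1 tissue and experiment. Experiment 1 was scanned in 1 session and experiments 2 and 3 in another. Chow arrays lay at slide positions 1 and 2 in experiment 1 and at 3 and 4 in the others, and HFD arrays the reverse. The part of scan session and position was not tested. The probe for Lgals3, the targeted gene, was well above background on all 24 arrays and was higher on the KO-labelled array in 11 of 12 pairs (log2 difference 1.28, SE 0.28, adjusted p = 0.09 in limma, a linear model across all probes with Benjamini-Hochberg adjustment). Its position relative to the deletion was not determined here, so the probe did not check the labels, and strains are named by label throughout. At 10 probes that separated the strain labels in experiments 2 and 3, chosen after seeing the data and scaled from 0 (WT-labelled) to 1 (KO-labelled), the HFD arrays of experiment 1 lay between 0.20 and 0.51 where labelled WT and between 0.48 and 0.51 where labelled KO. All other arrays lay between -0.08 and 0.12 or between 0.89 and 1.08. The counts of members in the diet and strain comparisons are therefore also given without experiment 1.

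**Figure D1:**
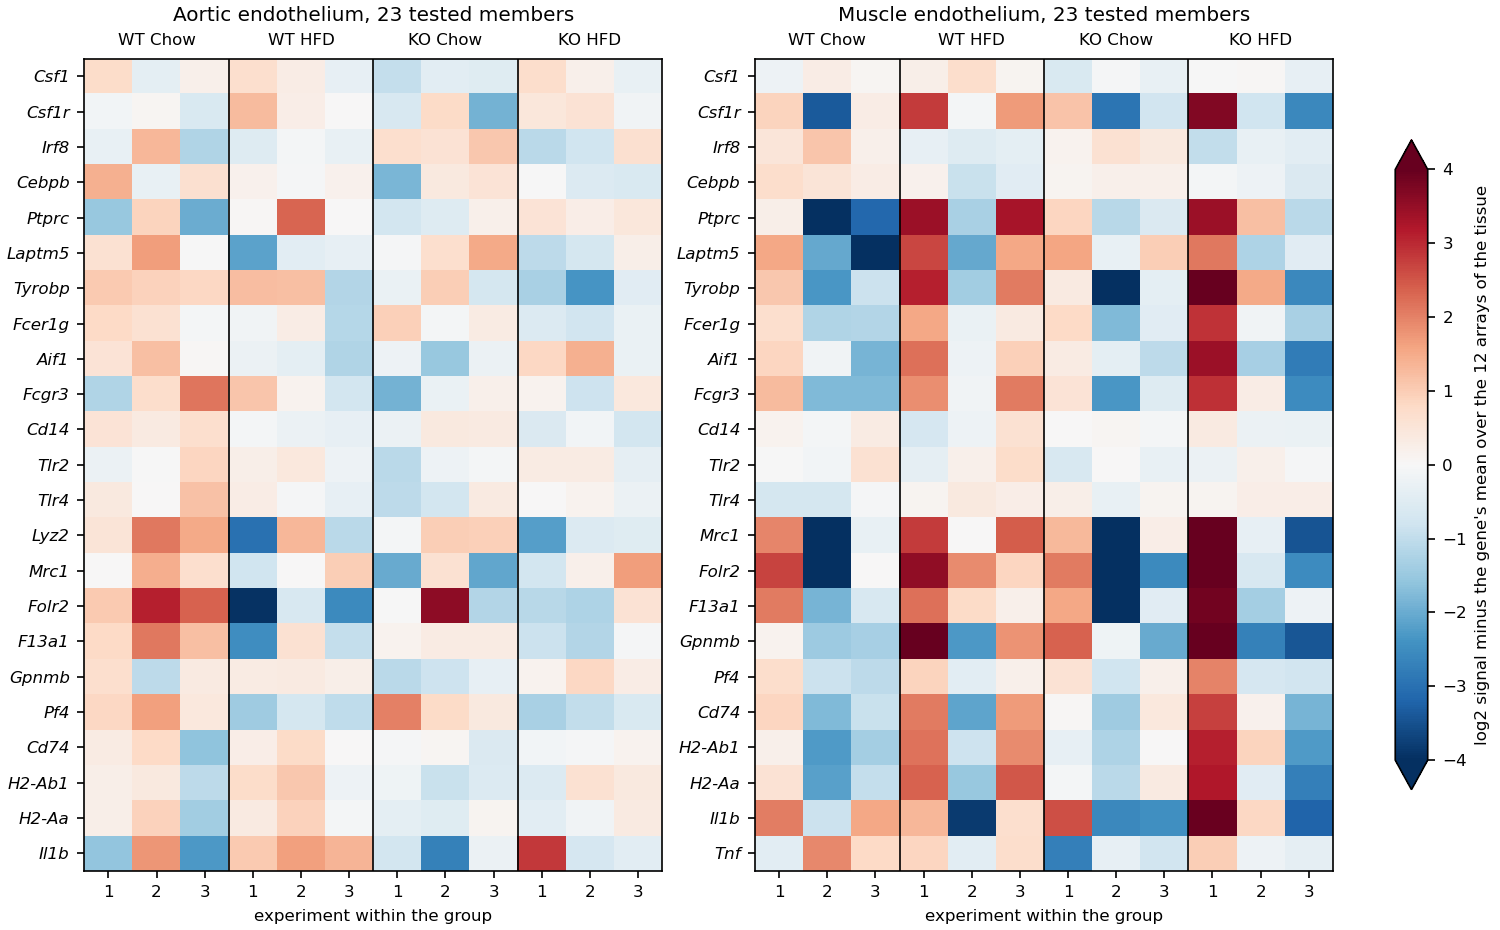
Heat maps of the 23 members tested in each tissue (rows) over the 12 arrays of the tissue (columns, by group and experiment). Colour is the log2 signal minus the mean of the gene over the 12 arrays, clipped at 4 on either side. In muscle the KO-labelled HFD array of experiment 1 was the highest of the 12 for 19 of the 30 members with a probe, and the WT- and KO-labelled chow arrays of experiment 2 were the lowest for 8 and 7.

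Which of these genes differed between the vascular beds was asked of all 24 arrays. Of the 24 members tested, 6 were higher in aortic endothelium, namely Gpnmb, Cebpb, Tlr4, Csf1, Tlr2 and Cd14, and 1 was higher in muscle endothelium, Irf8. Among all 27387 probes tested, 11.5% were higher in aorta and 16.7% higher in muscle, 28.2% together, so that 40.7% of the called probes were higher in aorta, against 66.8% with the scaling of the deposited table. The median difference of the members, aorta minus muscle, was 0.11 against -0.27 over all probes. With the deposited scaling these were 0.37 and -0.01, and with normexp background correction the members' median was -0.05, while the 7 genes kept their direction under each. Without experiment 1 the members' median was 0.82 and without experiment 2 it was -0.77, Ptprc alone going from -0.10 to 1.1 and -1.27. In pooled sorted cells, fewer cells of a type and less RNA per cell cannot be told apart. That holds for every comparison that follows.

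Gpnmb, a transmembrane glycoprotein of macrophages that handle lipid or debris, had the widest difference. Its log2 signal in aorta was lowest at 2.15, with a median of 3.48 and a highest value of 4.05, while in muscle it ran from -7.22 through a median of -4.54 to 0.95. The arrays of the tissues did not overlap, which held for 5.64% of all probes. The fitted difference was 7.02 (SE 1.02, adjusted p = 5.13e-05), and 9 of 12 muscle arrays measured the probe above background. It was 8.45 without experiment 1 and 6.28 without experiment 2. A second Gpnmb probe was well above background on 1 of 12 aortic arrays (mean -7.54) and 0 of 12 muscle arrays (mean -8.22). The difference thus rests on 1 probe. Tlr4, the receptor for bacterial lipopolysaccharide, ran from -0.23 through 0.81 to 1.96 in aorta and from -1.46 through -0.64 to -0.36 in muscle. Again no array overlapped (difference 1.56, SE 0.25, adjusted p = 0.00012).

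Cebpb, a transcription factor of acute inflammatory and myeloid genes, had lowest, median and highest values of -2.11, -0.21 and 1.14 in aorta against -3.28, -2.27 and -1.70 in muscle. The ranges met only at the lowest aortic array (difference 2.11, SE 0.38, adjusted p = 0.000365). For Csf1, the macrophage growth factor, they were 1.86, 2.77 and 3.55 in aorta against 1.17, 1.80 and 2.5 in muscle (difference 1.03, SE 0.23, adjusted p = 0.00234). Its receptor gene Csf1r differed by 1.37 (SE 0.81, adjusted p = 0.216), with overlapping arrays and no call. Ligand and receptor genes thus had estimates on the same side, and 1 of them passed the test.

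Tlr2, a receptor for bacterial lipoproteins, ran from -0.90 to 1.05 in aorta and from -1.36 to 0.00 in muscle (difference 0.90, SE 0.26, adjusted p = 0.0139). Cd14, the co-receptor that hands lipopolysaccharide to Tlr4, ran from 0.69 to 2.10 and from 0.05 to 1.32 (difference 0.72, SE 0.22, adjusted p = 0.0178). The arrays overlapped for both. Both calls were lost without experiment 1 (adjusted p = 0.0808 for Tlr2 and 0.053 for Cd14) and without experiment 2 (0.21 and 0.292). Irf8, a factor that steers monocytes and dendritic cells and is also induced by interferon in other cells, went the other way, with lowest, median and highest values of -0.82, 0.20 and 1.70 in aorta and 1.36, 2.26 and 3.44 in muscle. It was 3.87-fold higher in muscle (log2 difference -1.95, SE 0.37, adjusted p = 0.000588), and the ranges overlapped only near their ends.

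No leukocyte membrane or adaptor gene differed between the tissues by this test. The fitted differences were -0.10 for Ptprc (adjusted p = 0.94), -0.56 for Laptm5, -0.36 for Tyrobp, -0.52 for Fcer1g and 0.36 for Aif1. The MHC class II group lay as close, with Cd74 at -0.09 (SE 0.69), H2-Ab1 at 0.02 (SE 0.69) and H2-Aa at 0.20 (SE 0.79). Standard errors of this size leave room for differences of more than 2-fold in either direction. Pf4, a chemokine of platelets and of some tissue macrophages, was at -0.87 (SE 0.41, adjusted p = 0.125) and Tnf at -1.37 (SE 0.58, adjusted p = 0.0868), both lower in aorta and neither called. Fibroblast markers moved with the higher aortic values: all 5 were higher in aorta, led by Lum (4.72) and Pdgfra (4.31), with summed signals of 223 to 501 times the 75th percentile in aorta and 17.1 to 159 in muscle. Adipocyte markers were higher in aorta in 4 of 5 tested. All 5 skeletal muscle fibre markers and 10 of 12 endothelial markers were higher in muscle. The part of these cells in the tissue differences was not tested.

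**Figure D2:**
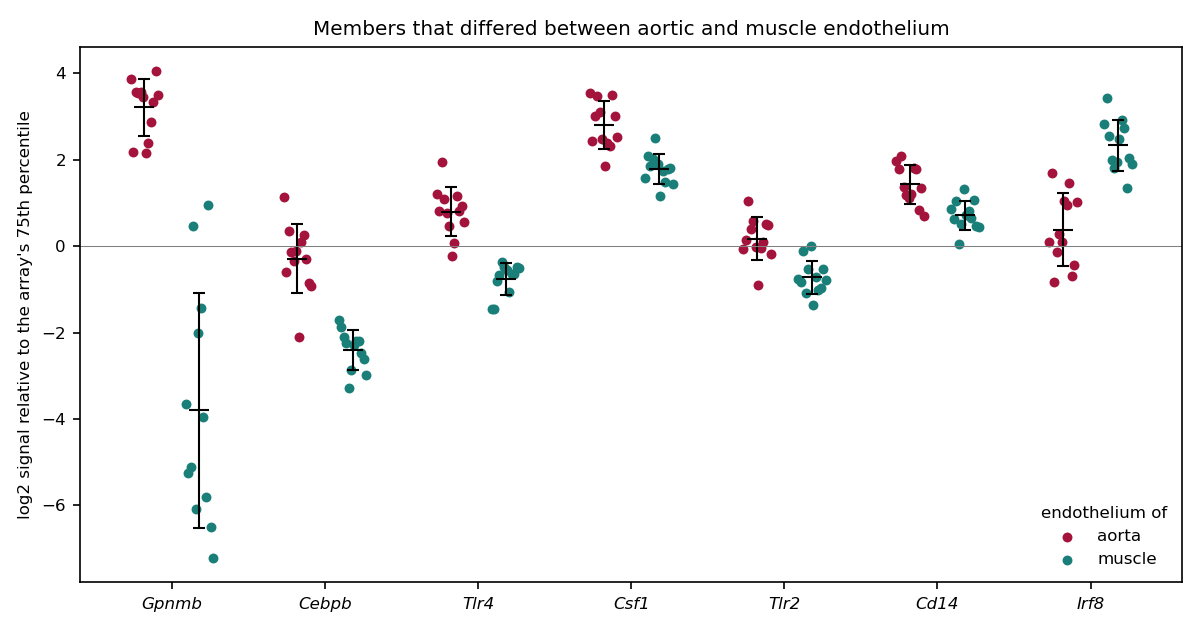
The 7 members that differed between the tissues, with 1 point per array (12 of aorta, 12 of muscle) and the mean and SD as bars. The vertical axis is the log2 signal relative to the 75th percentile of the array; levels of different genes come from different probes and are not comparable. The arrays of Gpnmb and Tlr4 do not overlap, and Irf8 lies higher in muscle.

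In aortic endothelium no member passed the diet comparison after adjustment over all probes, with WT- and KO-labelled pairs averaged, while 0.0309% of all 25865 probes passed. Beneath that threshold the members split. At an unadjusted p under 0.05, 7 of 23 were lower on HFD (Pf4, F13a1, Lyz2, Laptm5, Fcer1g, Folr2 and Cd14; 6.68% of all probes were), and 5 were higher (Ptprc, Il1b, Csf1r, Gpnmb and H2-Ab1; 8.45% of all probes). Lyz2 had passed the background filter only through a chow group and Il1b only through an HFD group, and with a filter that asked for every array 5 of 18 were lower (7.66% of probes) and 3 higher (9.05%). Without experiment 1, 5 of 23 were lower (4.98%) and 2 higher (6.25%). The median over the members was 0.05, against 0.01 over all probes. Of the 7 lower genes, 6 (all but Folr2) were lower on HFD in all 6 pairs, as were 4.55% of probes, and Ptprc alone was higher in all 6, as were 5.85%.

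Pf4 had the smallest adjusted p (0.114). On the chow arrays its log2 signal was 2.04, 2.84 and 1.64 in the WT-labelled and 3.21, 1.97 and 1.61 in the KO-labelled mice of experiments 1, 2 and 3. On HFD it was -0.21, 0.49 and 0.18 in the WT-labelled and -0.08, 0.22 and 0.59 in the KO-labelled mice. Every chow array lay above every HFD array. The share of all probes whose chow and HFD arrays separate was not computed, here or for the other diet comparisons. The fitted difference was -2.02 (SE 0.32), and it was the same, -2.02, in each strain label alone. Without experiment 1 it was -1.64. Pf4 was called with normexp background correction (adjusted p = 0.0475) and with no replicate block (adjusted p = 0.0361).

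F13a1, the transglutaminase subunit carried by platelets, monocytes and resident macrophages, read -1.64, -0.33 and -1.21 on WT-labelled chow arrays and -4.91, -1.82 and -3.38 on HFD. On KO-labelled arrays it read -2.28, -2.10 and -2.09 on chow and -3.28, -3.61 and -2.48 on HFD. Within each strain label every HFD array lay below every chow array (fitted -1.64, SE 0.29, adjusted p = 0.121). Folr2, a folate receptor of resident macrophages, read -3.22, -1.15 and -1.89 on WT-labelled chow arrays and -8.22, -4.89 and -6.82 on HFD, where 1 of 3 arrays was well above background. On KO-labelled arrays it read -4.29, -0.68 and -5.44 on chow and -5.36, -5.51 and -3.68 on HFD, so the groups overlapped there and experiment 3 ran the other way (fitted over both -2.97, SE 0.77, adjusted p = 0.208).

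Lyz2, the lysozyme of neutrophils and macrophages, lay at -5.23, -3.63 and -4.22 on WT-labelled chow and -8.74, -4.42 and -6.82 on WT-labelled HFD arrays, and at -5.83, -4.76 and -4.80 against -7.93, -6.28 and -6.24 on the KO-labelled ones. Only 7 of the 12 arrays were well above background, 5 of them chow (fitted -1.99, SE 0.36, adjusted p = 0.125). Laptm5, a lysosomal membrane protein of blood cells, lay at -3.14, -2.07 and -3.77 against -5.87, -4.16 and -4.08 in the WT-labelled and at -3.78, -3.08 and -2.23 against -4.78, -4.46 and -3.50 in the KO-labelled mice. The WT-labelled groups did not overlap and the KO-labelled groups did (fitted -1.46, SE 0.33, adjusted p = 0.173), and a dimmer second probe gave -2.01. Fcer1g, the Fc receptor gamma adaptor, was at -0.85 (SE 0.21, adjusted p = 0.2) and Cd14 at -0.69 (SE 0.19, adjusted p = 0.221), each with all 6 pair ratios below 0. For Cd14 the chow arrays read 1.98, 1.79 and 2.10 (WT-labelled) and 1.21, 1.82 and 1.80 (KO-labelled), and the HFD arrays 1.37, 1.19 and 1.12 and 0.85, 1.34 and 0.69, with overlap between the KO-labelled groups.

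Ptprc, which encodes CD45, had an estimate of the opposite sign. It read -5.86, -3.45 and -6.31 on WT-labelled chow arrays and -4.30, -2.01 and -4.32 on HFD, and -5.08, -4.86 and -4.13 against -3.79, -4.07 and -3.88 on KO-labelled ones. The KO-labelled groups did not overlap and the WT-labelled groups did (fitted 1.22, SE 0.21, adjusted p = 0.119), and the probe was well above background on 10 of 12 arrays. Its dimmer probes were well above background on 0 and on 1 of the 12 arrays and gave no value. Il1b, an inflammatory cytokine, was at 1.93 (SE 0.63, adjusted p = 0.261) with 4 of 6 pairs higher. Csf1r was at 0.81 (SE 0.31, adjusted p = 0.297) with 5 of 6 pairs higher. Of the antigen presentation genes, H2-Ab1 was at 0.69 (SE 0.27, adjusted p = 0.314), Cd74 at 0.35 and H2-Aa at 0.33, and none was called.

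The selection rule of the study asked for a log2 ratio past 1 in each of the 3 experiments. By it Ptprc was higher in the WT-labelled aorta (0.737% of all probes were) and Folr2, F13a1 and Pf4 were lower (0.862%). In the KO-labelled aorta Laptm5, Lyz2 and Pf4 were lower (1.13%) and no member was higher (1.83%). Pf4 was the gene on both lists. No member was called by limma in either strain label alone, nor was any probe (0% in the WT-labelled and 0% in the KO-labelled aorta). Unadjusted p lay under 0.05 for 8 members in the WT-labelled (5.77% of probes) and 10 in the KO-labelled aorta (11.3%), and without experiment 1 for 5 and 4. Of all probes 1436 and 1931 passed without experiment 1, against 1493 and 2910 with all experiments.

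**Figure D3:**
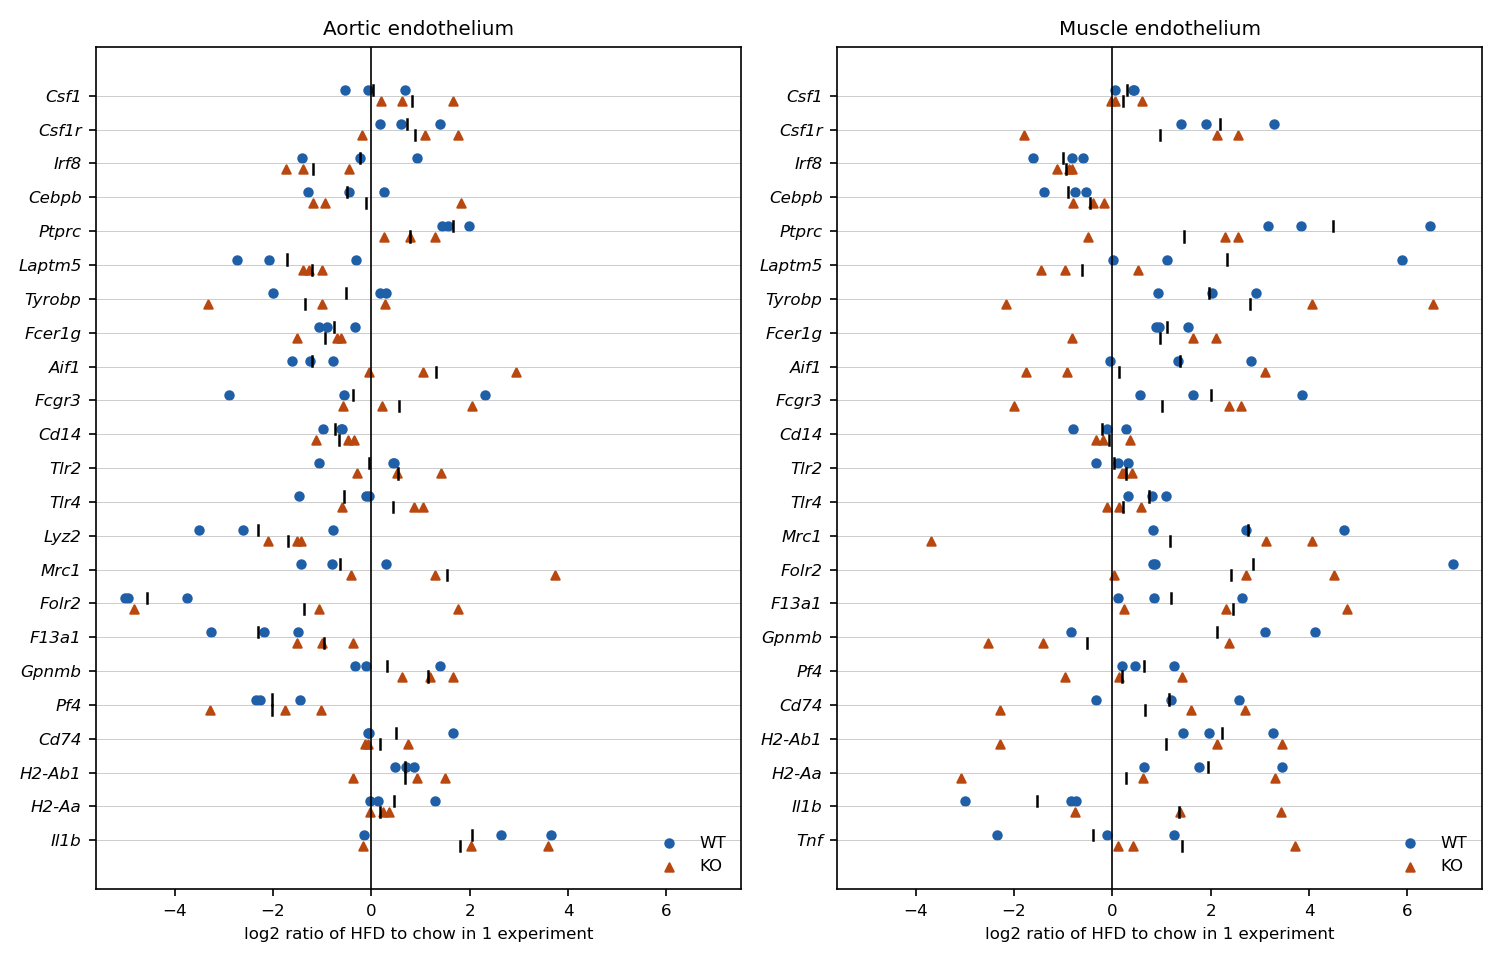
Log2 ratio of HFD to chow within each experiment for every member tested, in aortic (left) and muscle endothelium (right). Circles are the 3 WT-labelled and triangles the 3 KO-labelled pairs, and vertical bars are their means. In aorta the ratios of Pf4, F13a1, Lyz2, Laptm5, Fcer1g and Cd14 all lie below 0; in muscle those of Irf8 and Cebpb do, and 1 KO-labelled triangle lies far left for many genes.

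Markers of other cells also had diet estimates away from 0 in aorta. The 5 adipocyte markers tested all had estimates below 0 on HFD (median -4.14, Adipoq -4.79, Retn -4.79 and Cfd -4.14, with adjusted p from 0.0512 for Cidec to 0.0808 for Retn), and the summed signal of the list was 73.7 to 258 times the 75th percentile on chow and 3.25 to 12.2 on HFD, with only Lep at background throughout. The platelet list, which did not hold Pf4, had estimates of -2.13 (Treml1), -2.12 (Ppbp) and -1.63 (Gp9), 3 of 4 tested below 0, with summed signals of 0.793 to 7.02 on chow and 0.26 to 1.48 on HFD. Endothelial markers lay below 0 in 12 of 12 (median -0.58), and above 0 lay fibroblast markers in 5 of 5 (median 0.62) and B cell markers in 3 of 3 tested (median 0.80, sums of 0.111 to 0.784 on chow and 0.257 to 0.716 on HFD, with Pax5 at background throughout). The part of these cells in the values of Pf4, F13a1, Lyz2 and the rest was not tested.

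Pf4, F13a1, Laptm5, Lyz2 and Fcer1g, 5 of the 6 genes that lay lower on aortic HFD arrays in all 6 pairs, are shown by the 250 bases before their transcription starts, from RefSeq promoter windows of build GRCm38.p6, each printed 5′ to 3′ on the strand of its gene. A window was matched for 23 of the 32 members, and where several starts are listed the most upstream was used. Capitals mark the letters GAGGAAG, a core that PU.1 and related ETS factors bind, or its complement CTTCCTC on the other strand. The windows are Pf4 at chr5:90772185-90772434 (plus strand), F13a1 at chr13:37050245-37050494 (minus), Laptm5 at chr4:130913066-130913315 (plus), Lyz2 at chr10:117282273-117282522 (minus) and Fcer1g at chr1:171234350-171234599 (minus). The Laptm5 window lies inside the annotated extent of the gene, which begins further upstream.
Pf4: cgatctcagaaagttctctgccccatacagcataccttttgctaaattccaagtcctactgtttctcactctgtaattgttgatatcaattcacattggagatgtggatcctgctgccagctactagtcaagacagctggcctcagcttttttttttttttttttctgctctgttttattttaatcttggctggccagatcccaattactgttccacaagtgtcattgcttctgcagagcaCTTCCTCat
F13a1: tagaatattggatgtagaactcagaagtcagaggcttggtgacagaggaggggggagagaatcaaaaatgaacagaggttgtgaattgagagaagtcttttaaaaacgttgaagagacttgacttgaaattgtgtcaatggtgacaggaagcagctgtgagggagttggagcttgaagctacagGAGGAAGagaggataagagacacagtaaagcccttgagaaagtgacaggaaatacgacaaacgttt
Laptm5: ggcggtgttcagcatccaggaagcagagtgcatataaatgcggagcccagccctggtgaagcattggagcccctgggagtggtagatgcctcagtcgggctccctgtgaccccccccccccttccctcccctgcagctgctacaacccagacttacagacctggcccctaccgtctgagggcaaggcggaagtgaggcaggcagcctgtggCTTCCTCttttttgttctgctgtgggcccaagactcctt
Lyz2: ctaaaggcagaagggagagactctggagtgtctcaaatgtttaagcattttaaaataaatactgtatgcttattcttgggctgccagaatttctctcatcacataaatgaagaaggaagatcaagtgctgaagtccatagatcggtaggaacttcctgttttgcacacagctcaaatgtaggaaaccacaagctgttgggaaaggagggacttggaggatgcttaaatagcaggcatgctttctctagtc
Fcer1g: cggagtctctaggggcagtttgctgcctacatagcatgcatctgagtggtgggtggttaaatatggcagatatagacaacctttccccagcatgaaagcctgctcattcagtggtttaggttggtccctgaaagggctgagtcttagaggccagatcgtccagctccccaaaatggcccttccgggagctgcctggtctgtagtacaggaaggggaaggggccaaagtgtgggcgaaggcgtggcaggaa
The match began 9 bases before the start in Pf4, 66 in F13a1 and 39 in Laptm5, and Lyz2 and Fcer1g held none. Over all members with a window 8 of 23 held it, against 10.6% of 32851 windows of the same length. A match describes the letters and is not a site of binding.

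In muscle endothelium most estimates lay above 0, again without a call. Of 23 tested, 19 had estimates above 0 on HFD, and the median was 0.86 against -0.01 over all probes, but no member passed the adjusted threshold, while 0.288% of all 25682 probes did. Fcgr3, Mrc1 and Folr2 had passed the background filter only through an HFD group and Il1b only through a chow group. With the filter that asked for every array, 10 of 13 had estimates above 0, with a median of 0.47 against 0 over all probes. At an unadjusted p under 0.05, 6 were higher (Ptprc, F13a1, Folr2, Fcer1g, Tlr4 and Csf1r; 7.28% of probes) and 2 were lower (Irf8 and Cebpb; 9.1%). With the stricter filter 5 of 13 were higher (8.37% of probes) and 2 lower (10%). In all 6 pairs Irf8 and Cebpb were lower (5.73% of probes) and Folr2 and F13a1 higher (5.63%). The ratio of Folr2 in the KO-labelled pair of experiment 3 was 0.03. With normexp Folr2 no longer had the same sign in all 6 pairs, and the filter that asked for every array left out both Folr2 and F13a1.

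Irf8 had the smallest adjusted p (0.101). It read 2.82, 3.44 and 2.55 on WT-labelled and 2.48, 2.93 and 2.73 on KO-labelled chow arrays, and 2.00, 1.82 and 1.95 on WT-labelled and 1.36, 2.04 and 1.90 on KO-labelled HFD arrays. Every HFD array lay below every chow array (fitted -0.98, SE 0.18), again with no share over all probes computed. A second probe gave -1.10, and the value without experiment 1 was also -0.98. It was called with normexp (adjusted p = 0.0482), with probes above background on all arrays only (0.0452) and with the slide as the block (0.0445). Cebpb was at -0.68 (SE 0.18, adjusted p = 0.159), with values of -1.70 to -2.29 on chow and -2.24 to -3.28 on HFD, which overlapped by 1 array on each side. In aorta the same genes were at -0.71 (SE 0.34) and -0.30 (SE 0.44).

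The leukocyte and macrophage genes varied widely between experiments. Ptprc read -4.01, -9.38 and -7.39 on WT-labelled chow arrays and -0.83, -5.55 and -0.94 on HFD, and -3.39, -5.35 and -4.82 against -0.83, -3.05 and -5.31 on KO-labelled ones. The HFD array was higher in 5 of 6 pairs, the exception being the KO-labelled pair of experiment 3 (fitted 2.97, SE 0.55, adjusted p = 0.103). Only 1 of 3 WT-labelled chow arrays was well above background. Csf1r read -1.24, -5.48 and -1.81 against 0.67, -2.20 and -0.42 in the WT-labelled and -0.98, -5.04 and -2.90 against 1.58, -2.92 and -4.69 in the KO-labelled mice. The groups overlapped and the same pair was the exception (fitted 1.58, SE 0.59, adjusted p = 0.259).

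Folr2 read -1.39, -9.11 and -4.05 on WT-labelled chow arrays and -0.54, -2.19 and -3.23 on HFD, and -1.99, -9.24 and -6.62 against 0.73, -4.73 and -6.59 on KO-labelled ones. F13a1 read -0.60, -4.53 and -3.33 against -0.49, -1.90 and -2.48, and -1.14, -8.81 and -3.13 against 1.18, -4.03 and -2.89. For both the ratio of experiment 2 was the largest in each strain label, where the chow arrays lay lowest, and the groups overlapped (Folr2 2.64, SE 0.93, adjusted p = 0.242, F13a1 1.82, SE 0.59, adjusted p = 0.215). Without experiment 2 the estimates were 1.11 for Folr2 and 0.88 for F13a1. The experiment 2 chow arrays of Folr2 in both strain labels, and of F13a1 in the KO-labelled mice, were not well above background. The sizes of those ratios therefore rest on signal near background. Fcer1g was at 1.05 (SE 0.38) and its partner adaptor Tyrobp at 2.38 (SE 1.02, adjusted p = 0.311), each higher in 5 of 6 pairs. Pf4, lower on every aortic HFD array, was at 0.41 (SE 0.32) in muscle, with chow arrays of 2.77, 1.21, 1.02, 2.66, 1.27 and 2.29 and HFD arrays of 2.97, 1.66, 2.27, 4.07, 1.40 and 1.32.

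The MHC class II genes were alike in muscle. H2-Ab1 read 0.40, -2.09 and -1.19 on WT-labelled chow arrays and 2.36, -0.65 and 2.07 on HFD, and -0.15, -1.06 and 0.21 against 3.30, 1.06 and -2.07 on KO-labelled ones. All 3 WT-labelled pairs and 2 KO-labelled pairs were higher on HFD, while the KO-labelled pair of experiment 3 was lower (fitted 1.66, SE 0.71, adjusted p = 0.309). The dimmer H2-Ab1 probes gave 1.71 and 2.0. H2-Aa was at 1.12 (SE 0.79), its pair ratios being 1.77, 0.65 and 3.44 in the WT-labelled and 3.31, 0.63 and -3.08 in the KO-labelled mice. Cd74 was at 0.91 (SE 0.67), with ratios of 1.19, -0.33 and 2.58 and of 2.69, 1.60 and -2.28. Without experiment 1 the 3 genes were at 1.14, 0.41 and 0.40. Cd86, a co-stimulatory ligand, was well above background on 2 of 12 muscle arrays and was not tested.

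**Figure D4:**
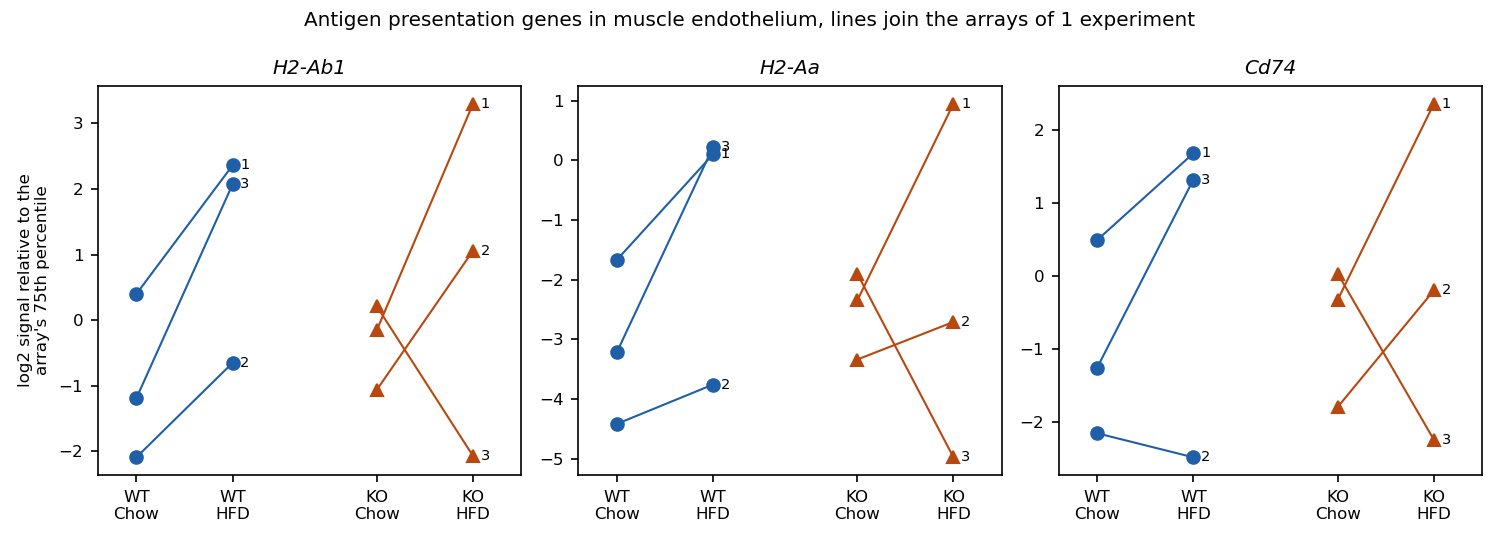
H2-Ab1, H2-Aa and Cd74 in muscle endothelium, with the log2 signal relative to the 75th percentile of the array on the vertical axis. Lines join the chow and HFD arrays of 1 experiment (numbered) within a strain label. The lines of the KO-labelled pair of experiment 3 run down in all 3 panels; the other lines run up, except Cd74 in the WT-labelled pair of experiment 2.

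MHC class II promoters carry an X and a Y box, and the Y box holds the letters ATTGG. The 250 bases before the starts of H2-Aa at chr17:34287824-34288073 (minus strand) and of Irf8 at chr8:120736108-120736357 (plus strand), also from RefSeq windows of GRCm38.p6, are shown for the class II chain and for the factor with the smallest p in muscle. Capitals mark ATTGG, sought on both strands.
H2-Aa: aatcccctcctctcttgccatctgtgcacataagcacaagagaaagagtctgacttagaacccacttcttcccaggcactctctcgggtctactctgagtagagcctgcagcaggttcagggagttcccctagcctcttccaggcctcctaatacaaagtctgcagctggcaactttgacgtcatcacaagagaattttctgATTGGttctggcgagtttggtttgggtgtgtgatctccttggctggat
Irf8: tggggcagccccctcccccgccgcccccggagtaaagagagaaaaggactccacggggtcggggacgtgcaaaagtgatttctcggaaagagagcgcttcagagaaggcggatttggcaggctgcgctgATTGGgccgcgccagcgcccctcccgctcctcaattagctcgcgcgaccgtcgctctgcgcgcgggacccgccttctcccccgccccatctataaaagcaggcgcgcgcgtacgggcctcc
It began 48 bases before the start in H2-Aa and 121 in Irf8. Among members with a window 10 of 23 held it, and so did 33.8% of all windows.

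In the WT-labelled muscle the rule of a ratio past 1 in each experiment was met by Csf1r, Ptprc and H2-Ab1, all higher (0.876% of probes), with no member lower (0.958%). In the KO-labelled muscle it was met by none, where 0.462% of probes were higher and 0.532% lower. The median ratio over the 23 members was 0.86, 0.46 and 1.39 in the WT-labelled pairs and 2.38, 0.63 and -0.83 in the KO-labelled pairs, against medians over all probes between -0.08 and 0.13. Without the KO-labelled pair of experiment 3, a choice made after seeing the data, 14 members had the same sign in the 5 remaining pairs (19.3% of probes did), against 4 over all 6 pairs (11.4%), and 12 were higher at an unadjusted p under 0.05 (7.89%) and 2 lower (9.98%). That pair was left out because its median over these members was low, so the higher counts without it are no independent evidence of a diet difference. Without experiment 3 altogether 11 were higher (6.98%) and 1 lower (7.88%), and without experiment 1 there were 2 higher (4.4%) and 2 lower (6.76%). In each strain label alone no member was called (0% of probes in the WT-labelled and 0.00389% in the KO-labelled muscle), and an unadjusted p under 0.05 was reached by 5 and by 2 members (12.1% and 8.49% of probes). Without experiment 1 it was reached by 1 member higher and 2 lower in the WT-labelled muscle and by 0 in the KO-labelled. Of all probes 2288 and 1505 reached it then, against 3098 and 2181 with all experiments.

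Experiment 1 stood high for these genes in muscle. Its array was the highest of the 3 in its group for 17 (WT-labelled chow), 17 (WT-labelled HFD), 14 (KO-labelled chow) and 19 (KO-labelled HFD) of the 23 members, where 37.1%, 30%, 41.1% and 27.2% of all probes did so. Without experiment 1 the muscle median was 0.41, with 17 members above 0, and the aortic median was -0.32. Its HFD arrays are those that lay between the strain labels. Markers of other cells lay on either side of 0 in the muscle diet comparison. Adipocyte markers were below 0 in 5 of 5 tested (median -0.83), skeletal muscle fibre markers in 5 of 5 (median -0.18) and platelet markers in 3 of 4 (median -0.03). Fibroblast markers were above 0 in 5 of 5 (median 1.15, Lum 2.84 with adjusted p = 0.0683), mast cell markers in 2 of 3 tested, T cell markers in 4 of 5 (median 0.71), and the B cell markers Ms4a1 and Cd79b were at 1.95 and 1.69, 3 of 3 tested being above 0 at summed signals of 0.144 to 0.578 on chow and 0.201 to 2.59 on HFD. The neutrophil list reached a sum of 14.7 among the WT-labelled HFD arrays, against a highest sum of 1.1 in the other 3 muscle groups. The part of these cells was not tested.

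Whether the diet difference itself differed between tissues was tested across the 12 pairs, where aorta and muscle came from the same pools. No member was called, nor was any probe (0% of 27387), and 19 of 24 members had estimates below 0, that is, lower on HFD in aorta relative to muscle (median -0.78, against 0.00 over all probes). At an unadjusted p under 0.05, 8 were below 0 (3.99% of probes) and none above (5.25%). They were Pf4 (-2.43, SE 0.49), F13a1 (-3.46, SE 0.73), Folr2 (-5.61, SE 1.36), Fcer1g (-1.90, SE 0.47), Lyz2 (-2.82, SE 0.77), Ptprc (-1.75, SE 0.65), Laptm5 (-2.32, SE 0.90) and Tyrobp (-3.31, SE 1.29). The smallest adjusted p was 0.173, for Pf4. With the pool as the block, 7 members were below 0 at the unadjusted level and 1 above (3018 probes passed in either direction). For F13a1 every one of the 6 aortic ratios was below 0 and every one of the 6 muscle ratios above 0, the extremes being -0.38 in aorta and 0.12 in muscle. Without experiment 2 the difference for F13a1 was -2.59. Without experiment 1 the difference for F13a1 was -3.52 and for Pf4 -1.86. Unadjusted p then lay under 0.05 for 4 members below 0 (Fcer1g, Folr2, F13a1 and Pf4) and 1 above (Tnf, 1.60). Of all probes 2146 passed then, against 2530 with all experiments. Lyz2 had been tested only through an aortic chow group. The filter that asked for every array left 13 members, with 3 below 0 at that level and 0 above (1924 probes passed). The estimates of Ptprc lay above 0 in both tissues, at 1.22 and 2.97.

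**Figure D5:**
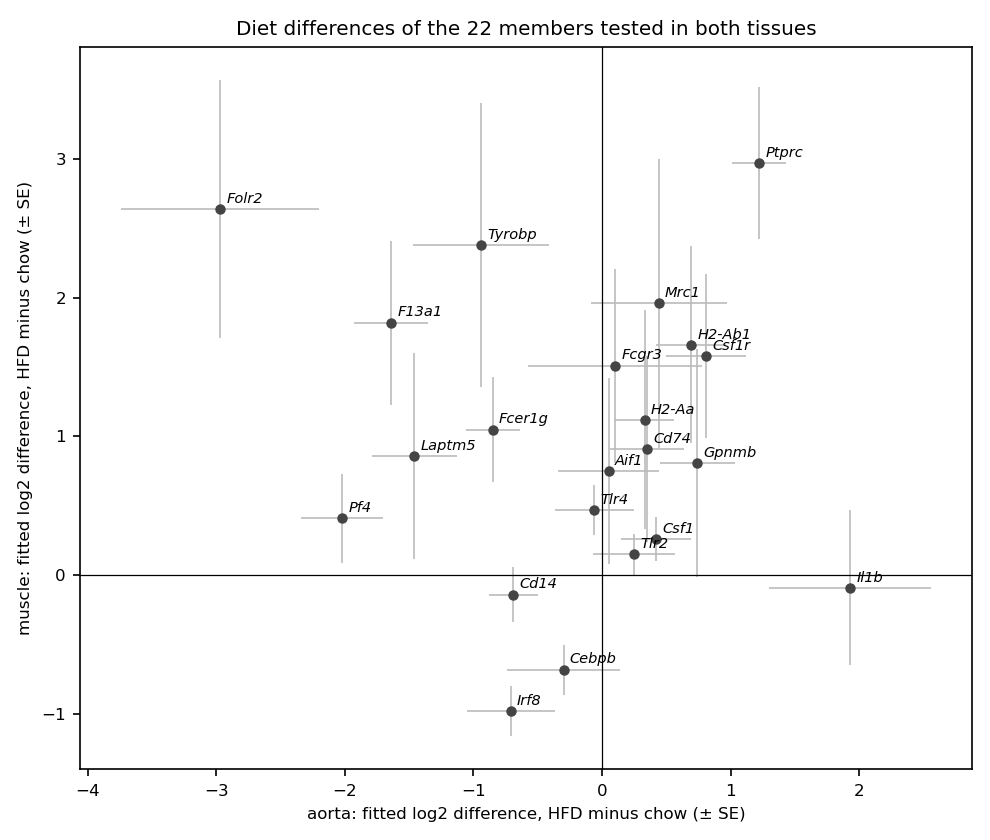
Fitted log2 difference of HFD minus chow over both strain labels, in aorta (horizontal axis) and muscle (vertical axis), for the 22 members tested in both tissues, with bars of 1 SE. Folr2, Tyrobp, F13a1, Laptm5, Fcer1g and Pf4 lie left of 0 and above 0, and Irf8, Cebpb and Cd14 lie below 0 on both axes.

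The strain labels were compared last. Between KO- and WT-labelled arrays no member was called on chow in aorta (0.0116% of probes were), on HFD in aorta (0.00387%), on chow in muscle (0%), on HFD in muscle (0%) or over all arrays (0.139%). Estimates lay below 0 for 20 of 23 members on chow in aorta (median -0.65, against 0.03 over all probes) and 16 of 23 on HFD (-0.15, against 0.01). In muscle these were 12 of 23 on chow (-0.02, against 0.01) and 20 of 23 on HFD (-0.29, against 0.03). Over all arrays 20 of 24 lay below 0 (-0.34, against 0.02). Without experiment 3 the muscle count on HFD was 5 of 23, and without experiment 1 the aortic count on chow was 17 of 23. At an unadjusted p under 0.05, Tlr4 (-0.99), Aif1 (-1.25) and Mrc1 (-1.87) were lower on KO-labelled chow arrays in aorta (4.41% of probes passed in either direction), Tyrobp was lower (-1.78) and Aif1 higher (1.27) on HFD in aorta (1.15%), Tnf was lower (-2.06) on chow in muscle (2.42%), and no member passed on HFD in muscle (3.15%). Over all arrays, where a pool entered once per tissue with no term of its own, Csf1 was at -0.41 (SE 0.16, adjusted p = 0.959; 4.35%). No member's diet response was called different between strain labels in aorta (0% of probes) or muscle (0%). Unadjusted p lay under 0.05 for Aif1, a calcium-binding protein of activated macrophages, in aorta (2.52, SE 0.78; 2.62% of probes), and for Ptprc (-3.03, SE 1.1) and Il1b (2.87, SE 1.11) in muscle (4.12%). For Aif1 the aortic WT-labelled chow arrays read -3.24, -2.58 and -3.74 against -4.02, -4.19 and -4.99 on HFD, and the KO-labelled ones -4.0, -5.31 and -4.01 against -2.97, -2.36 and -4.06, so all 3 WT-labelled ratios lay below 0 and 2 of the 3 KO-labelled ratios above it. Without experiment 1 no member had an unadjusted p under 0.05 between strain labels in aorta or over all arrays, or for the difference of the aortic diet responses. In muscle Laptm5 (3.54, with 0.942% of probes higher) and Tnf (-1.92, with 1.2% lower) then passed on chow, and Aif1 (-2.44, with 1.88% lower) on HFD. Ptprc (-4.24) passed for the difference of the diet responses, as did 1071 probes in either direction, against 1059 with all experiments. Fcgr1, the high-affinity IgG receptor, was not tested in aorta. Its probe passed background on 2 of 3 chow arrays labelled WT and 0 of 3 labelled KO, and on HFD on 1 and 0 of 3. The WT-labelled chow arrays read -6.07, -2.13 and -2.85, the first not above background, and the KO-labelled ones -7.08, -7.08 and -8.19. No fold is therefore given.

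Other genes of the same pathways gave the setting. Of 16 further macrophage genes tested, none was called for diet. Over both strain labels averaged their median was -0.20 in aorta, with Marco at 2.61 and Cd163 at -2.35, and 0.83 in muscle, with 14 of 16 above 0. The study reported a larger rise of Marco on HFD in KO than in WT aortic endothelium, which an average does not show. Of the further MHC class II pathway genes, 8 tested in aorta and 9 in muscle, 1 was called: H2-Ob, a chain of the modulator of peptide loading that is best known from B cells, was higher on HFD in muscle (1.40, SE 0.14, adjusted p = 0.0358). Ciita, the master regulator of class II transcription, was at 1.49 in aorta (SE 0.56, adjusted p = 0.295). The 9 tested MHC class I pathway genes had diet medians of 0.00 in aorta and 0.19 in muscle, where all were above 0 and none was called. The Toll-like receptor signalling genes (11 tested in aorta, 10 in muscle) had medians of 0.07 and 0.06.

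Between tissues these lists held more calls. Of 9 MHC class I pathway genes tested, 6 were higher in muscle endothelium (16.7% of all probes were) and none in aorta (11.5%): the heavy chains H2-K1 (-0.48) and H2-D1 (-0.65), the peptide transporter subunits Tap1 (-1.76) and Tap2 (-1.30), and the immunoproteasome subunits Psmb8 (-0.95) and Psmb9 (-0.98). The list median was -0.65, against -0.27 over all probes and -1.06 over the 12 endothelial markers. With the deposited scaling the median over all probes was -0.01, and values of these lists under it are not given here. Irf8, which is known to act in interferon responses, was also higher in muscle. Of 10 class II pathway genes, H2-DMb1 was higher in aorta (2.11) and H2-Ob (-2.0), Cd40 (-1.60) and Rfxap (-0.98) were higher in muscle. Among the further macrophage genes, the scavenger receptor Msr1 (2.67) was higher in aorta and Clec4n (-0.82) was higher in muscle. Il34, the second ligand of the Csf1 receptor, was higher in muscle (-2.24, SE 0.32, adjusted p = 4.63e-05), opposite to Csf1, and Csf2ra (1.58) and the Toll-like receptor adaptor Myd88 (0.59) were higher in aorta.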

How the data were processed

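Expression was measured on 24 one-colour Agilent Whole Mouse Genome arrays, 1 per pool of mice and tissue, from amplified Cy3-labelled RNA of sorted cells. The authors scanned the arrays and deposited background-subtracted spot intensities, made per the file headers with Feature Extraction 10.5.1.1, while the submitters' processing notes name version 9.1. The log2 value table deposited by the authors equalled the log2 of those intensities plus 1 constant per array.

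From the intensities, log2 of the processed signal minus the 75th percentile over 43379 non-control spots was taken, outlier spots were set aside and spots of a probe averaged. Of 41174 probes, 27198 matched 1 gene symbol through their accession in RefSeq. A probe was called well above background where at least 0.5 of its spots were, and tested where this held on every array of at least 1 group (25865 probes in aorta, 25682 in muscle, 27387 over both). The number of arrays limits the precision.

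Tests were limma fits (limma 3.58.1, R 4.3.3) over all probes tested, two-sided, with Benjamini-Hochberg adjustment and a threshold of 0.05. Diet was fitted with a block for strain and experiment, since the methods formed ratios within an experiment, strain by group means, and tissue with the slide as a random block (correlation 0.28). Deviations of chow and HFD arrays of an experiment correlated at 0.01 to 0.46, and 7 of 12 pairs exceeded 0.1. The pools are taken as samples, so p-values of the fits within a tissue measure the spread between these pools. In the fits over both tissues a pool entered once per tissue, and the main setting held no term for it. Their p-values treat the aortic and muscle arrays of a pool as separate samples.

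The 32 members and all lists were chosen with earlier results of these data known. All members are reported, other lists by counts and by up to 3 genes with the largest change plus those called (1 gene of these lists is not reported here), and values in every sample for members called, past 1 in each experiment or brightest in a tissue. Alternatives were normexp on median signals (offset 50), quantile normalization, the deposited table, other filters, the mean of probes, other blocks, the methods' t-test and leaving out each experiment. The fits were tested on simulated data, with noise drawn separately for each array and no shared effect of experiment or slide. The real arrays were correlated within experiments and slides, so the counts need not hold for them. In the simulation the aortic diet fit called 0 of 100 probes changed by log2 1 and 0 of 100 changed by log2 2. The muscle diet fit called 1 and 52, and the tissue fit 54 and 88. Of the unchanged probes the 3 fits called 0, 1 and 12. The lack of a diet call does not exclude a change of log2 1 or 2. Figures were drawn with Python 3.11.15 and matplotlib 3.10.9.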

Additional observations from a re-analysis of the deposited data

Results flagged for a closer look

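Some members had diet log2 ratios of opposite sign in the 2 tissues, every experiment of one tissue lying below 0 and every experiment of the other above 0. None of them was called for diet in either tissue, except Pf4 in aorta with normexp and with no replicate block, or for the difference between the tissues. For F13a1, a transglutaminase subunit of platelets and macrophages, this held over both strain labels, and the difference of the diet responses, aorta minus muscle, was -3.46 (limma, adjusted p = 0.189), with all 6 aortic ratios below 0 and all 6 muscle ratios above 0. Within the strain labels the difference of its mean log2 ratios was -3.51 (WT-labelled) and -3.42 (KO-labelled). Its KO-labelled muscle chow array of experiment 2, at -8.81, was not well above background. Without experiment 2 the difference of the diet responses was -2.59.

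In the WT-labelled mice alone the same opposite pattern was seen for Folr2 (-7.43), Laptm5 (-4.05), Pf4 (-2.66), Fcer1g (-1.89) and Tlr4 (-1.29). With F13a1 these were 6 of the 22 members tested in both tissues, where 2.48% of probes had the pattern, and in the KO-labelled mice it was F13a1 alone, where 2.81% did. These within-strain differences were not tested, and the HFD arrays of experiment 1 on which they partly rest lay between the strain labels at the 10 probes that separate them elsewhere. For Folr2 and Laptm5 some WT-labelled arrays behind the differences were not well above background.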

How the results depend on the processing

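Over the alternatives run no value changed direction past its threshold. Of the member counts, 219 stayed within 1.5 times and 23 did not, and of the values for single genes 379 kept their side of the threshold, 5 crossed to pass it and 4 ceased to pass. The 0 members called for diet became 1 in aorta, Pf4, with normexp (adjusted p = 0.0475) and with no replicate block (0.0361), and 1 in muscle, Irf8, with normexp (0.0482), with the stricter filter (0.0452) and with the slide as the replicate block (0.0445). Over its alternatives the adjusted p of Pf4 ran from 0.0361 to 0.465 and that of Irf8 from 0.0445 to 0.359. The block for strain and experiment changed no other member's diet call. Between tissues, 7 members were called with the main setting, and Cd14 and Tlr2 were lost without experiment 1 or 2. Tnf, lower in aorta, was called besides with normexp, with the pool of mice as the block and with no block, and Pf4 with no block.

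Ratios past 1 in each experiment were met by 4 members in the WT-labelled aorta, and by 2 with the stricter filter, which tests fewer genes. In the KO-labelled aorta 3 became 1 with normexp, and in the WT-labelled muscle 3 became 5 with no filter. Over the 4 groups 10 became 6 with the stricter filter. The same sign in all 6 pairs was met by 7 members in aorta and 4 in muscle, together 11, and the stricter filter left 2 in muscle and 7 together. Without the KO-labelled muscle pair of experiment 3, an alternative chosen after seeing the data, 14 had the same sign in muscle, where 19.3% of probes did against 11.4% over all 6 pairs. Where no cause is named, the cause was not tested.

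Leaving out 1 experiment, which asks for fewer agreeing pairs, gave 5 to 6 members past 1 in the WT-labelled aorta, 3 to 10 in the KO-labelled aorta, 3 to 9 in the WT-labelled muscle, 0 to 11 in the KO-labelled muscle and 14 to 29 in all. It gave 8 to 11 of the same sign in aorta, 4 to 14 in muscle and 12 to 25 in all. Over all probes these rules were met by 2.19% to 10.4% (past 1) and by 19.1% to 30.2% (same sign) when 1 experiment was left out, so the higher counts are not read as stronger results. The highest counts came without experiment 3, except in the WT-labelled groups, where they came without experiment 2.

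Over all probes, the 8 diet calls in aorta became 55 with normexp, 41 with the stricter filter, 50 with no replicate block and 58 with the slide as the block. The 74 in muscle became 221, 247 and 274 with normexp, the stricter filter and the slide as the block, and 1 with no filter, and leaving out any 1 experiment gave 0 in both tissues. The 7715 tissue calls became 12630 with no block and 15645 with the pool as the block, and 2987 without experiment 2. The methods' t-test on the log2 ratios gave an unadjusted p under 0.05 for 7 members in the WT-labelled aorta and 2 in each other group (4.73%, 6.77%, 8.28% and 5.04% of probes in the order WT aorta, KO aorta, WT muscle, KO muscle), and none after Benjamini-Hochberg adjustment. Signal near background limits Lyz2, Folr2, Ptprc, Il1b, Fcgr3 and Mrc1, and 7 members in each tissue gave no test. In muscle it also limits F13a1, Gpnmb, Aif1, Laptm5 and Tnf.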
